A study of Mus musculus with 19 samples.

Results

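Shh, Foxa2, Foxa3, Hnf4a, Cdx1, Cdx2, Gata4 and Gata6 are 8 regulators of the urogenital sinus and of the endoderm, the embryonic layer from which the prostate epithelium arises. They were taken as a list of gene names and read from both deposited RNA-seq tables, and all 8 were found among the 23284 genes of each table. The samples were 7 renal grafts, 6 prostate samples and 6 cultures of mouse embryonic fibroblasts (MEFs), all given the strain C57BL/6. The first table holds 5 grafts (FS002, FS003, FS005, FS007 and FS008) with prostate and MEFs, and the second holds grafts FS022 and FS023. The labels call all 7 a renal graft, and the study's supplement names the 5 of the first table as iEpt+NAF grafts, which leaves FS022 and FS023 as the iEpt only grafts. The 2 tables were scaled separately, so FS022 and FS023 are given one by one and enter no test.

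The prostate samples were wild-type tissue at 6 weeks. The MEFs came from limbs of E13.5 embryos with male and female littermates pooled, and carry the label Nkx3-1tm2(LacZ)Mms /+. Per the study, its fibroblast cultures were sorted to exclude blood, endothelial and epithelial cells and macrophages. The grafts started from such fibroblasts, made epithelial in culture (iEpt cells) with retroviral human OCT4, SOX2, KLF4 and c-MYC. The iEpt+NAF cells also received lentiviral prostate regulators, mouse Foxa1 among them. Both kinds were recombined with embryonic rat urogenital mesenchyme and grown for 6 weeks under the kidney capsule of male nude mice that held testosterone pellets. A graft sample can therefore hold descendants of the fibroblasts, rat stroma and mouse kidney of the host, and it is not given in the sources used here how rat reads were treated. Each value comes from a whole piece of tissue, in which fewer cells of a type and less RNA per cell cannot be told apart.

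In the embryo, endoderm is patterned along the gut tube by transcription factors that open chromatin and bind one another's genes. FOXA and GATA factors act early and widely, HNF4A acts in liver, gut and kidney proximal tubule, and CDX factors mark the hindgut and intestine. The urogenital sinus is the hindgut-derived chamber whose epithelium secretes Sonic hedgehog, to which the mesenchyme around it responds while prostatic buds form.

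Values are deposited log2 values, on which a gene with 3 reads stood between 1.68 and 2.34 in the first table and at 3.12 in FS022 and 2.70 in FS023. Below this value of 3 reads, which covers counting error only, a gene was not counted as read, and the deposited values there scatter around 0. Genes near 0, with a mean below 0 in the other samples, had a 99th percentile of 2.22 in FS020 to 4.22 in FS002. That percentile can include genes expressed in the sample alone. Reads counted on genes, estimated from the values themselves, ranged from 16767287 to 26152338 in the first table and were 6629663 in FS022 and 9662056 in FS023. The secreted prostate markers (Pbsn and 5 others) had a summed log2 level of 20.48 to 21.45 in prostate, of 9.86 to 12.55 in the 5 grafts, and of 12.02, 10.43, 10.76 and 10.37 in MEF samples FS015 to FS018, against 7.46 and 7.27 in MEF samples FS019 and FS020. All 6 markers were above the value of 3 reads in FS015 to FS018, 2 were in FS019 and 1 in FS020, with Tgm4 above it in all 6 MEF samples (7.26 to 9.82). The part of prostate RNA in the MEF values was not tested. The MEF samples also formed 3 close pairs (FS015 with FS020, FS016 with FS019, FS017 with FS018), which differed by 4.24 to 9.45 times the counting variance, against 17.1 for the closest pair of other libraries in 1 group. Fibroblast markers (Col1a1 and 6 others) had a summed level of 18.75 to 19.24 in MEFs and of 13.58 to 16.24 in the grafts. The study's supplement calls the prostate samples independent, and the sources used here do not say whether the samples of the other groups came from separate animals or cultures, so p-values measure the spread between these samples, which may be technical.

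Promoter stretches were available for 4 of the 8 genes, in 7 windows of 250 bases before a start site (RefSeq, GRCm38.p6), and are shown because 7 of the 8 genes encode factors that bind DNA by short, known letters. The letters searched for FOXA factors were TGTTTAC. Those for HNF4 factors were CAAAGTCCA, and the letters TTTATNG were those for CDX factors. For the GATA factors the letters AGATAA were used, and for the GLI factors of the hedgehog pathway GACCACCCA. Both strands were read, and each match is printed within 30 bases along the gene's own strand, with the matching letters in capitals.
Cdx2, FOXA letters on the opposite strand, chr5:147307272-147307301 (minus strand): taatagagtcttGTAAACActcgttaatca
Foxa3, CDX letters on the opposite strand, chr7:19023559-19023588 (minus strand): ggggtgtcccggCTATAAAaagtggctgcc
Foxa2, GATA letters, chr2:148045630-148045659 (minus strand): ctgttagccttgAGATAAtattaactttgt
Hnf4a, GATA letters, chr2:163506793-163506822 (plus strand): gaagaatcaataAGATAAccgggcggggtg
The match before Cdx2 lies 37 bases, that before Foxa3 34 bases and that before Hnf4a 49 bases from the start site of its window, while the match at Foxa2 lies 180 bases before the last of its 3 start sites. The FOXA letters occur in 3.17% of 32851 windows of that length, the CDX letters in 9.81% and the GATA letters in 9.99%. The CDX match at Foxa3 overlaps the letters of a TATA box. No window held the HNF4 letters (0.384% of all windows) or the GLI letters (0.225%). These matches are descriptions of the letters and not of bound sites.

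Across the groups, 3 patterns of expression were seen, which the plot of values by sample shows for each gene. Shh was read in all 6 prostate samples and in grafts, and MEFs had almost none. Foxa2, Foxa3, Hnf4a, Cdx1 and Cdx2 were read in grafts and were at or near the value of 3 reads, or below it, in prostate and most MEFs. Gata4 and Gata6 were read in both grafts and MEFs, and prostate had the lowest values of both.

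**Figure D1:**
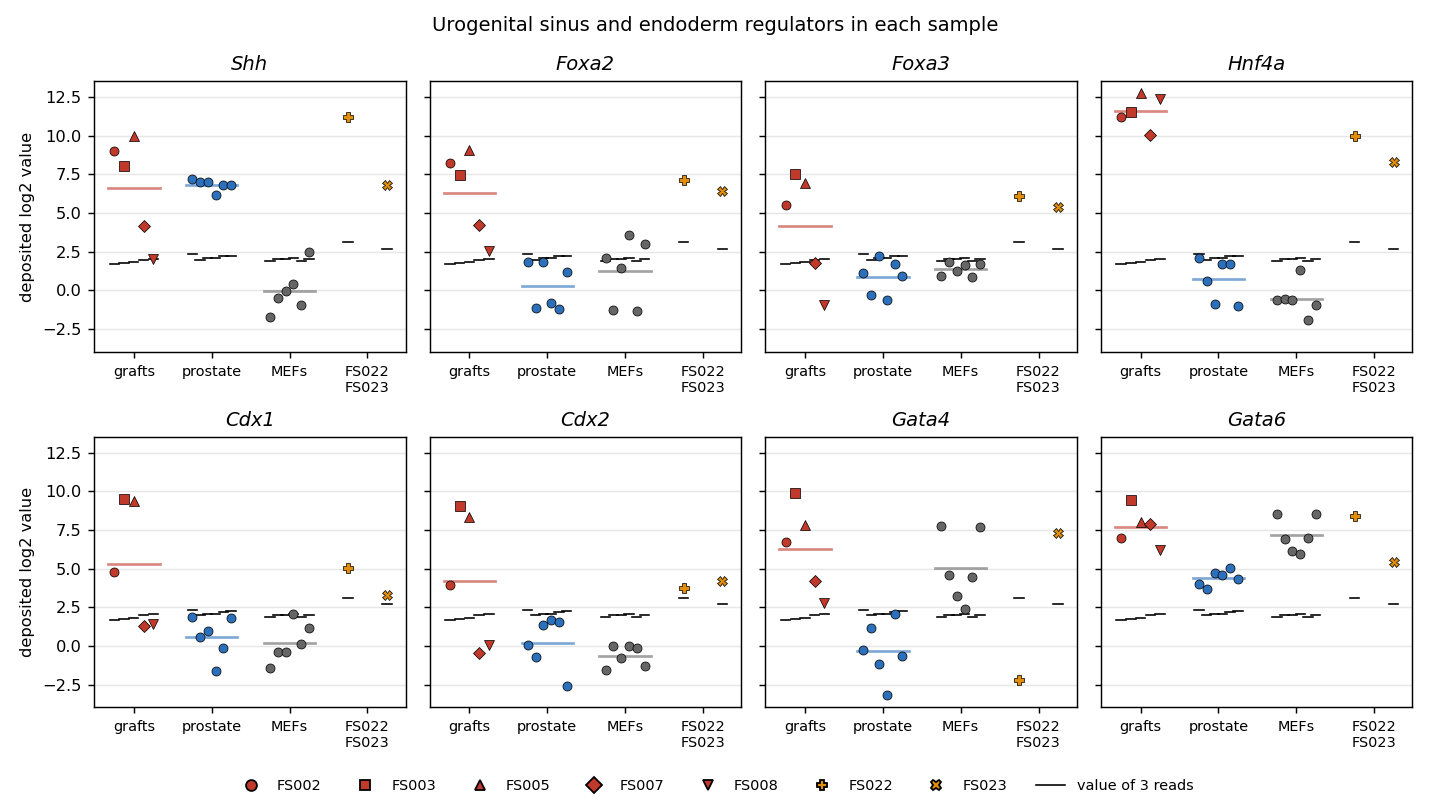
Deposited log2 value (y axis) of each of the 8 genes in every sample, by group (x axis); points are samples, wide lines are group means of the first table, short black lines mark the value of 3 reads in each sample, and grafts FS022 and FS023 come from the separately scaled second table. Hnf4a lies between 10.08 and 12.75 in the 5 grafts of the first table, while Cdx1 and Cdx2 lie above the value of 3 reads in only FS002, FS003 and FS005 of those 5.

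The first question is how MEFs and prostate differ, as the start and the target of the reprogramming. Of the 8 genes, 3 had enough reads in these groups to be tested, of which Shh was higher in prostate and Gata4 and Gata6 were lower. Over all 14560 genes tested, 27.8% were higher and 20.5% lower, by the same rule of a Benjamini-Hochberg adjusted p under 0.05 in limma and a log2 fold change of at least 1. In the comparison of the 5 grafts with MEFs, 8 of 8 were tested and 5 were higher (Shh, Foxa2, Hnf4a, Cdx1 and Cdx2), beside 29.9% of 16121 genes higher and 12.0% lower. In the comparison of prostate with grafts, again 8 of 8 were tested and 5 were lower in prostate (Foxa2, Hnf4a, Cdx1, Gata4 and Gata6), beside 23.0% of 16353 genes lower and 10.3% higher. The median log2 fold change of the 8 genes was 4.94 for grafts over MEFs, where that of all genes tested was 0.26, and -4.34 for prostate over grafts, where that of all genes was -0.11. With genes absent from 1 group set to their bound against the value of 3 reads, the medians of the 8 were 2.66 and -3.32. These comparisons share their samples in pairs and are not independent. Foxa2, Foxa3, Hnf4a, Cdx1 and Cdx2, not tested between prostate and MEFs, passed the filter for enough reads only through the grafts. For them, higher values in grafts were fixed in advance by that filter. The 8 genes were also chosen with earlier results of these data known, so their counts and medians are descriptions and not a test of the list.

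**Figure D2:**
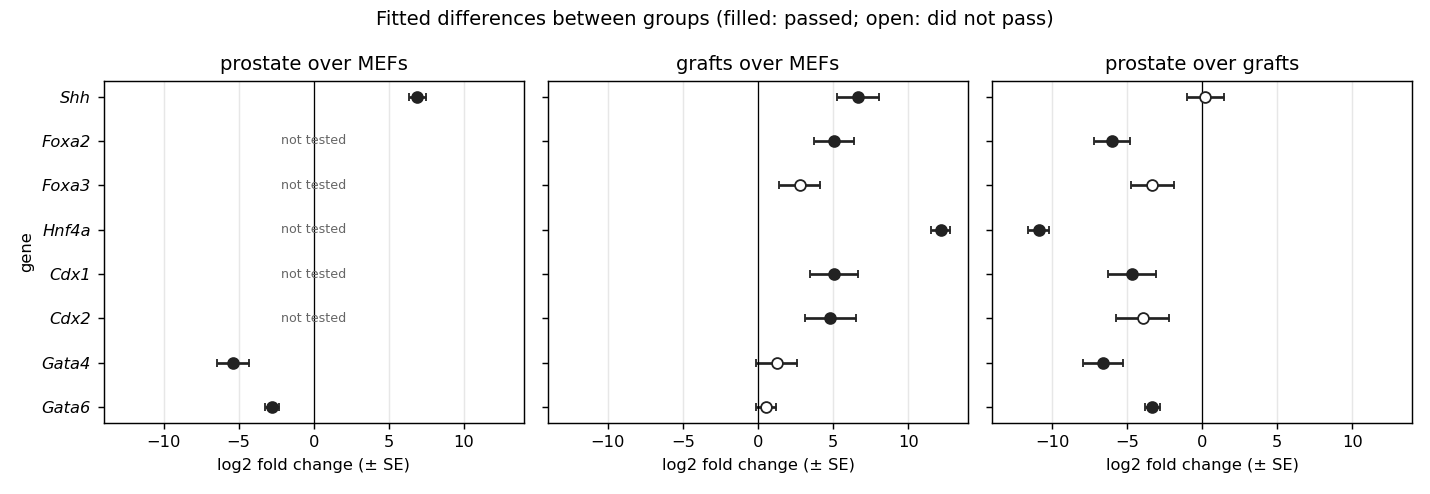
Fitted log2 fold change with its SE (x axis) for each gene (y axis) in the 3 comparisons of the first table; filled points passed the test and open points did not. Hnf4a is the farthest from 0 in both comparisons with grafts, and Shh lies near 0 in that of prostate with grafts.

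Shh (ENSMUSG00000002633.3, mm9 chromosome 5, 28783355 to 28793641, minus strand) encodes the secreted hedgehog ligand of the urogenital sinus epithelium. Its log2 values were 8.99 in graft FS002, 8.04 in FS003, 9.99 in FS005, 4.14 in FS007 and 2.01 in FS008. Prostate samples ran from 6.17 to 7.22 with a median of 6.92, and MEFs from -1.74 to 2.46 with a median of -0.25. Prostate was the even group, while 3 grafts stood above every prostate sample and the other 2 below. FS008 was just below the value of 3 reads, and MEF sample FS020 was the 1 MEF sample above it.

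Shh was 6.90 ± 0.57 (SE) log2 units higher in prostate than in MEFs, with no overlap (adjusted p = 1.16e-07 by limma, exact two-sided permutation p = 0.00216, the smallest that 6 against 6 samples can give). Grafts were 6.69 ± 1.40 (SE) higher than MEFs (adjusted p = 0.00147), although the lowest graft lay within the range of MEFs. Prostate and grafts differed by 0.21 ± 1.23 (SE) with an adjusted p of 0.897, and the SE leaves room for a change of several fold either way. The sign of the difference turned when FS007 or FS008 was left out (-0.42 and -0.95). In the second table Shh was 11.23 in FS022 and 6.80 in FS023. On the opposite strand, exons of 9530036O11Rik and Gm17493 overlap those of Shh by 291 and 361 bases, and the library kit does not mark strand, so their reads cannot be told apart.

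The hedgehog list holds 18 genes of the pathway, Shh included, from ligands to the GLI factors that carry the signal to the nucleus. Of the 17 tested, 6 were higher and 7 lower in prostate than in MEFs (median log2 fold change -0.31, beside 0.17 for all genes), 4 were higher and 7 lower in grafts than in MEFs (median log2 fold change -0.76), and 3 were higher and 3 lower in prostate than in grafts (median -0.06). Over all genes tested, the shares higher and lower were 27.8% and 20.5% in the first of these comparisons. They were 29.9% and 12.0% for grafts over MEFs, and 10.3% and 23.0% for prostate over grafts. Ihh, the Indian hedgehog ligand of the gut, was 8.29, 9.55, 8.94, 8.40 and 7.22 in the 5 grafts in the order above, and the grafts did not overlap prostate (3.74 to 5.08). It was 3.96 ± 0.41 (SE) log2 units lower in prostate than in grafts (adjusted p = 1.58e-05 by limma) and 7.19 ± 0.63 (SE) higher in grafts than in MEFs (adjusted p = 2.99e-06). In FS007 and FS008, where Shh was low, Ihh therefore stood above every prostate sample. Dhh, the desert hedgehog ligand, averaged 4.55 in grafts, 3.64 in prostate and 3.54 in MEFs and passed in no comparison.

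Ptch1, the receptor that hedgehog ligands bind and that the signal itself induces, averaged 9.66 in grafts, 8.41 in prostate and 8.72 in MEFs, and was lower in prostate than in grafts by -1.25 ± 0.15 (SE) log2 units (adjusted p = 4.20e-05). Smo, which relays the signal, was lower in prostate than in MEFs and grafts, by -1.99 ± 0.10 (adjusted p = 1.26e-09) and -1.23 ± 0.14 log2 units (adjusted p = 2.43e-05).

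Gli1, the GLI factor most directly induced by the signal, was 7.65, 7.81 and 8.76 in FS002, FS003 and FS005 and 4.41 and 5.26 in FS007 and FS008. It was higher than in MEFs in prostate (3.54 ± 0.34, adjusted p = 5.29e-07) and in grafts (2.78 ± 0.77, adjusted p = 0.00811). As with Shh, FS007 and FS008 were the lowest of the 5 grafts for Gli1, Gli2 (3.33 and 3.62) and Gli3 (6.09 and 5.94). Gli3, which acts mainly as a repressor without signal, was highest in MEFs at 11.03 to 11.15, and differed from them by -3.90 ± 0.40 in grafts (adjusted p = 8.64e-06) and by -3.07 ± 0.17 in prostate (adjusted p = 2.26e-09). Gli2 was lower than in MEFs in the same groups, with differences of -2.74 ± 0.82 (adjusted p = 0.0123) and -2.80 ± 0.44 (adjusted p = 5.12e-05).

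Hhip, which binds and holds back the ligands, was 10.19 to 10.71 in prostate. It was 4.36 ± 0.86 log2 units higher there than in grafts (adjusted p = 0.00134), the largest rise of the list in that comparison, and FS008 had the lowest value of all at 2.68. Scube2, which helps to release the ligands, was also higher in prostate than in grafts (3.22 ± 0.51, adjusted p = 0.000295). FS022 had 10.36 for Ihh, 5.55 for Gli1 and 10.00 for Hhip, and FS023 had 7.36, 6.11 and 7.75.

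**Figure D3:**
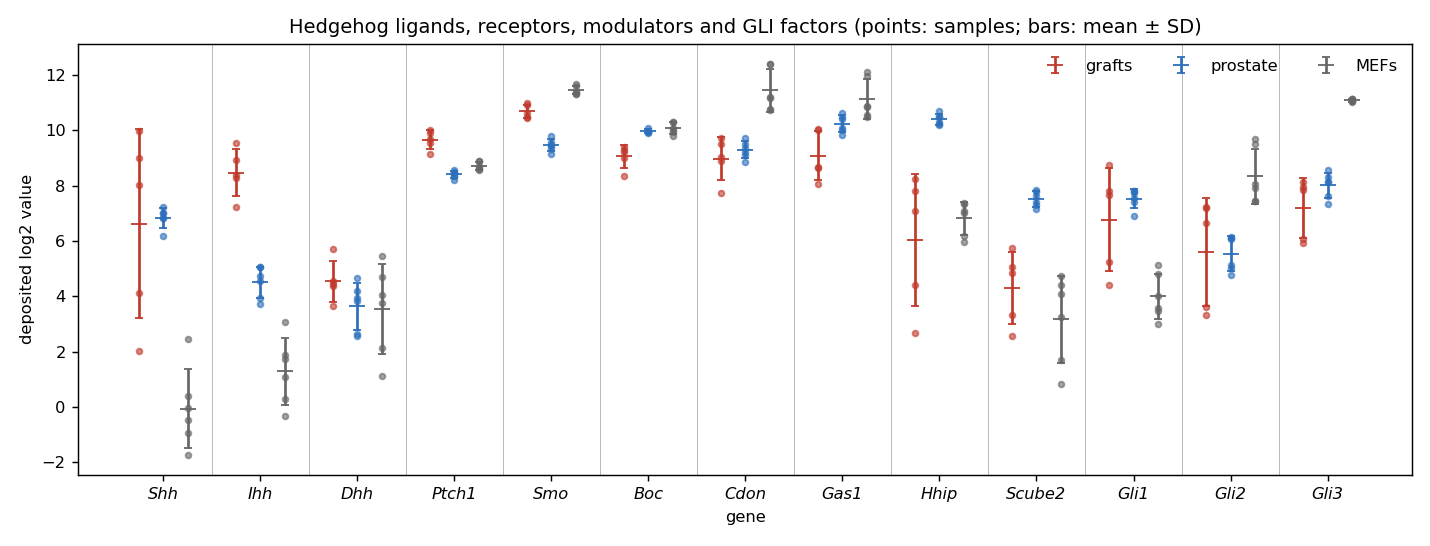
Deposited log2 values (y axis) of Shh and 12 other hedgehog pathway genes (x axis) in the 5 grafts, 6 prostate and 6 MEF samples of the first table; points are samples and bars are the mean ± SD. Grafts lie above prostate without overlap for Ihh, and the prostate samples lie above all grafts for Hhip.

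Foxa2 (ENSMUSG00000037025.5, mm9 chromosome 2, 147868613 to 147872705, minus strand) encodes a forkhead factor of early endoderm, notochord and floor plate. It was 8.22 in FS002, 7.46 in FS003, 9.10 in FS005, 4.21 in FS007 and 2.55 in FS008. No prostate sample reached the value of 3 reads, with a range of -1.19 to 1.86 and a median of 0.19, and MEFs ran from -1.35 to 3.56 with a median of 1.78. All 5 grafts were above all prostate samples, and 3 of the 6 MEF samples were above the value of 3 reads. The Foxa2 value of FS008 was close to the 99th percentile of genes near 0 in that graft (2.54).

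The fitted difference of prostate from grafts was -6.02 ± 1.21 (SE) log2 units (adjusted p = 0.00147 by limma, exact permutation p = 0.00216, the smallest possible). Since prostate was below the value of 3 reads throughout, Foxa2 was at least 15.6-fold lower there than the mean of the grafts. Grafts were 5.05 ± 1.35 (SE) higher than MEFs (adjusted p = 0.00657), with FS008 inside the range of MEFs. Foxa2 was 7.12 in FS022 and 6.40 in FS023.

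Foxa3 (ENSMUSG00000040891.5, mm9 chromosome 7, 19598631 to 19608887, minus strand), a forkhead factor of liver and gut, was likewise lowest in FS007 and FS008. Its values were 5.51, 7.55 and 6.96 in FS002, FS003 and FS005, and 1.75 and -0.95 in FS007 and FS008, which are both below the value of 3 reads. Prostate ran from -0.65 to 2.24 (median 1.03) and MEFs from 0.84 to 1.84 (median 1.46), so 3 grafts were above all of them and 2 were not. The differences were 2.79 ± 1.37 (SE) for grafts over MEFs (adjusted p = 0.0929) and -3.32 ± 1.43 for prostate over grafts (adjusted p = 0.0675), neither of which passed. Both passed when FS008 was left out (4.07 with adjusted p = 0.00439, and -4.60 with adjusted p = 0.00438). Foxa3 was 6.08 in FS022 and 5.41 in FS023.

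Foxa1, the third paralog, is a forkhead factor of prostate epithelium and was among the genes delivered to the iEpt+NAF cells. It was 12.41 to 13.06 in prostate, 8.97 to 11.40 in grafts and 3.59 to 5.32 in MEFs. Prostate was 2.48 ± 0.39 (SE) log2 units above grafts (adjusted p = 0.000269), a direction opposite to that of Foxa2. Per kilobase of exon, the median of prostate was 2187 normalised reads for Foxa1 and 0.197 for Foxa2, whereas that of the grafts was 542 and 73.6. These values do not separate transcripts of the virus from those of the mouse gene. In the study's supplement, Foxa1 reads from the untranslated region, which viral transcripts lack, were absent in FS007 and FS008. They were present in FS002, FS003 and FS005.

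Hnf4a (ENSMUSG00000017950.9, mm9 chromosome 2, 163332544 to 163398646, plus strand) encodes a nuclear receptor of hepatocytes, intestinal epithelium and kidney proximal tubule. It was 11.20 in FS002, 11.55 in FS003, 12.75 in FS005, 10.08 in FS007 and 12.41 in FS008. Prostate ran from -0.98 to 2.11 (median 1.14) and MEFs from -1.92 to 1.29 (median -0.62), with no sample of either group above the value of 3 reads. Of the 8 genes, Hnf4a had the highest median per kilobase of exon in the grafts, 595 normalised reads, followed by Shh (97.5), Foxa2 (73.6), Gata6 (72.8), Gata4 (26.7), Foxa3 (21.6), Cdx1 (15.2) and Cdx2 (6.21). The spread of Hnf4a over the grafts (SD 1.06) was the smallest of the 8.

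Hnf4a was at least 732-fold higher in grafts than in MEFs (fitted log2 fold change 12.16 ± 0.61 SE, adjusted p = 7.96e-08 by limma). Against prostate it was at least 611-fold higher in grafts, with a fitted difference of prostate from grafts of -10.89 ± 0.69 (adjusted p = 6.95e-07). In both comparisons the groups did not overlap (exact permutation p = 0.00216, the smallest possible). Values of 9.96 in FS022 and 8.28 in FS023 were also far above the value of 3 reads.

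Markers of the kidney, the organ that held the grafts, moved with the samples. The proximal tubule list of 12 genes had 12 of 12 above the value of 3 reads in each of the 5 grafts, and its summed log2 level was 16.49 in FS002, 10.97 in FS003, 17.77 in FS005, 13.25 in FS007 and 17.80 in FS008. In prostate this sum was 5.47 to 7.63 and in MEFs 9.36 to 10.06, where Lrp2, Cubn and Ass1 were read. Kap, an androgen-regulated proximal tubule transcript, was 9.77 in FS003 and 12.34 in FS007, against 15.84 in FS002, 16.64 in FS008 and a still higher value in FS005. Slc34a1, the phosphate transporter, was 13.24, 7.19, 14.72, 10.44 and 15.21 in the grafts in the order above. FS003 had the lowest sum by over 2 log2 units and an Hnf4a value of 11.55, the third highest of the 5. How much of the Hnf4a signal comes from kidney of the host was not tested.

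The intestine list of 10 genes had its highest sums in FS003 (14.59) and FS005 (14.27), beside 10.61, 12.12 and 10.64 in FS002, FS007 and FS008, 6.25 to 8.50 in prostate and 6.57 to 8.53 in MEFs. Of its 10 tested genes, 9 were higher in grafts than in MEFs, beside 29.9% of all genes tested. However, 6 of the 10 had no MEF sample above the value of 3 reads, Vil1, Tff3 and Fabp2 among them. These 6 were tested only through the grafts, so their direction was fixed in advance. Vil1 (10.18 ± 0.94, adjusted p = 4.59e-06), Tff3 (9.29 ± 1.29, adjusted p = 8.63e-05) and Fabp2 (7.71 ± 1.37, adjusted p = 0.000495) were the farthest. Vil1 encodes the brush border protein villin, which kidney tubules also express. The liver list had 8 of 8 genes higher in grafts than in MEFs, beside the same 29.9%, led by Apoa1 (9.22 ± 1.5, adjusted p = 0.000272). Of these, 7 had no MEF sample above the value of 3 reads and were tested only through the grafts. The liver sum was 14.12 in FS003 and 13.16 in FS005 against 10.04 to 10.92 in the other grafts. Alb, the defining transcript of hepatocytes, was at 4.22, 8.11, 3.66, 2.54 and 3.08, below Apoa1 (8.05, 13.51, 12.44, 4.06 and 8.41), which intestine also makes. Over the 5 grafts the rest of the list ran from 5.48 to 9.73 for Ttr, 2.33 to 12.24 for Apob and 3.21 to 8.44 for Ahsg. Fgb ran from 3.08 to 9.14, Tat from 1.82 to 6.25 and Apoc3 from -2.67 to 7.92. The part of liver or intestine cells in these values was not tested.

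Hnf4g, the paralog of Hnf4a in gut and kidney, was 5.97, 10.17, 9.27, 7.07 and 6.50 in the grafts. It was at least 52.5-fold higher than in MEFs, none of which was above the value of 3 reads, and 4.02 ± 0.74 log2 units lower in prostate than in grafts (adjusted p = 0.000815). FS003 and FS005 were thus highest for Hnf4g, as for the intestine list, while FS005 and FS008 were highest for Hnf4a, as for the proximal tubule list.

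Cdx1 (ENSMUSG00000024619.8, mm9 chromosome 18, 61178516 to 61195853, minus strand) encodes a caudal homeobox factor of intestinal epithelium. It was 4.81 in FS002, 9.52 in FS003 and 9.39 in FS005, but 1.26 in FS007 and 1.41 in FS008, both below the value of 3 reads. No prostate sample (-1.62 to 1.85, median 0.79) or MEF sample (-1.41 to 2.08, median -0.12) was above it. Cdx2 (ENSMUSG00000029646.3, mm9 chromosome 5, 148112381 to 148118846, minus strand), the homeobox factor that sets intestinal identity, was 3.96, 9.07 and 8.33 in the same 3 grafts, and -0.43 and 0.07 in FS007 and FS008. Prostate was at -2.61 to 1.71 (median 0.70) and MEFs at -1.55 to 0.03 (median -0.45). Both genes were therefore above the value of 3 reads in 3 of the 5 grafts, strongly in 2 of them, and in no sample of prostate or MEFs. Cdx2 in FS002 (3.96) lay below the 99th percentile of genes near 0 in that graft (4.22).

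Over the groups, grafts were higher than MEFs for Cdx1 by 5.08 ± 1.59 (SE) log2 units (adjusted p = 0.0152 by limma) and for Cdx2 by 4.82 ± 1.69 (adjusted p = 0.0256). Against the value of 3 reads these are at least 9.16-fold and 4.33-fold. Prostate was lower than grafts for Cdx1 (-4.70 ± 1.59, adjusted p = 0.0256, at least 7.65-fold), while Cdx2 did not pass (-3.98 ± 1.78, adjusted p = 0.0764). Without FS003 or FS005, Cdx2 no longer passed against MEFs (adjusted p = 0.0641 without FS003 and 0.0686 without FS005), nor did Cdx1 against prostate (0.0636 and 0.0663), while Cdx1 still passed against MEFs (0.0388 and 0.0403). With each close MEF pair averaged to 1 sample, neither gene passed against MEFs (adjusted p = 0.0799 for Cdx1 and 0.121 for Cdx2). FS022 had 5.02 for Cdx1 and 3.72 for Cdx2, and FS023 had 3.27 and 4.18, all above the value of 3 reads and below FS003 and FS005. Cdx4, the third paralog, was not tested in any comparison for lack of reads (mean of 0.99 in grafts).

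FS003 and FS005 also had the highest values of Sis and Fabp1, from the intestine list. Sis, sucrase-isomaltase, was 12.61 in FS003 and 11.92 in FS005 but 5.05, 1.89 and 2.04 in FS002, FS007 and FS008. Fabp1, a fatty acid carrier, was 10.73 and 10.33 in the same 2 grafts, and 4.83, -0.31 and 1.65 in the others. Krt20, a keratin of intestine and of urothelium, was instead high in all 5 (8.68 to 11.26), FS007 and FS008 among them. Lct, another digestive enzyme, averaged 6.36 in prostate and 5.51 in grafts, and Lgals4 averaged 4.67 and 4.98. Cdh17 averaged 6.96 in MEFs and 7.80 in grafts. Of the list's 10 genes, 8 were lower in prostate than in grafts, beside 23.0% of all genes tested. Only 4 of the 10 had enough reads to be tested between prostate and MEFs. The stomach list showed another order, with sums of 15.79 in FS003, 12.25 in FS002, 11.27 in FS005, 8.78 in FS007 and 7.38 in FS008, and the lung list one of 13.44 in FS003, 12.81 in FS005 and 12.31 in FS002 against 9.87 and 8.36. Pgc, the gastric pepsinogen, reached 14.96 in FS003, and Sftpc, the surfactant protein of lung alveoli, 11.33 in FS005. Across the 5 grafts, 3 to 7 of the 8 stomach genes and 2 to 6 of the 6 lung genes were above the value of 3 reads. Tff1 of the stomach list was above it in none of these grafts. The part of cells of these organs in the values of Foxa2, Foxa3, Cdx1 and Cdx2 was not tested.

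**Figure D4:**
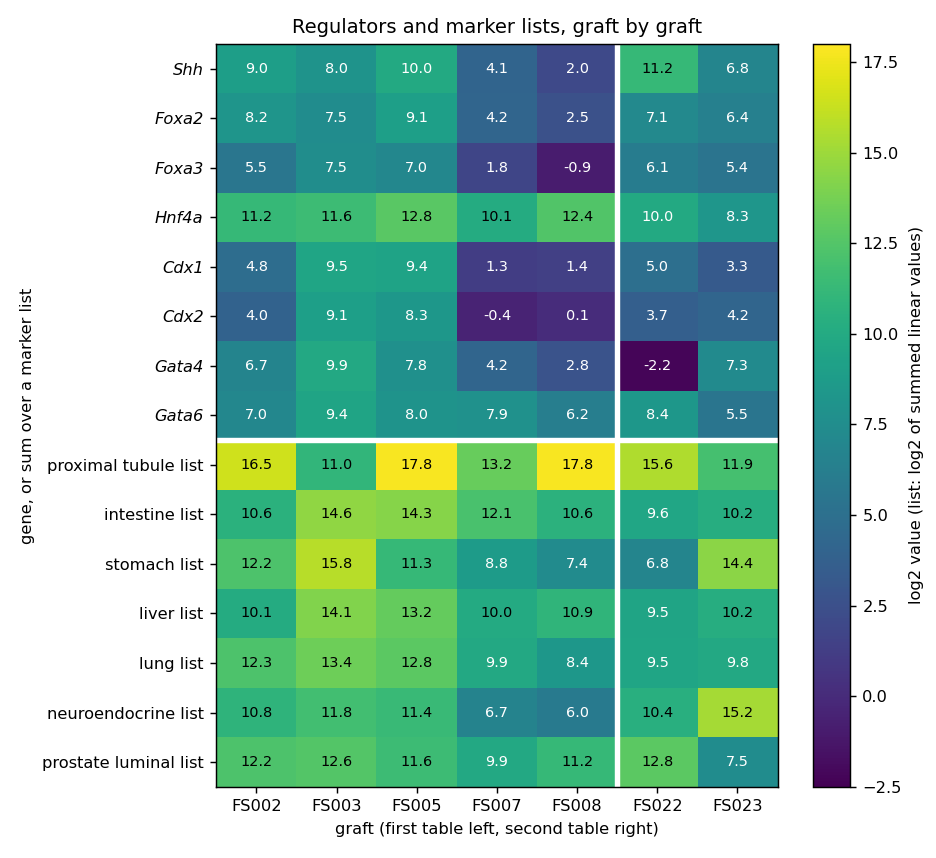
Deposited log2 values of the 8 genes and log2 summed levels of 7 marker lists (rows) in the 7 grafts (columns), on 1 color scale with the value printed in each cell; the vertical white line separates the 2 tables. Cdx1, Cdx2 and the intestine list are highest in FS003 and FS005, and the proximal tubule list is lowest in FS003 (10.97), where Hnf4a is 11.55.

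Gata4 (ENSMUSG00000021944.8, mm9 chromosome 14, 63817759 to 63890529, minus strand) encodes a zinc finger factor of endoderm, heart and gonad. It was 6.73 in FS002, 9.91 in FS003, 7.80 in FS005, 4.18 in FS007 and 2.77 in FS008. No prostate sample was above the value of 3 reads (-3.18 to 2.07, median -0.43), and MEFs were at 2.41 to 7.76 with a median of 4.52. Grafts and MEFs overlapped widely, and both lay above all prostate samples.

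Prostate was lower than MEFs by a fitted -5.36 ± 1.08 (SE) log2 units (adjusted p = 0.000487 by limma), or at least 6.44-fold, and lower than grafts by -6.61 ± 1.31 (adjusted p = 0.00132), or at least 15.3-fold. The difference of grafts from MEFs was 1.25 ± 1.38 (adjusted p = 0.442). Within MEFs the values went by the close pairs of libraries, with 7.76 and 7.72 in FS015 and FS020, 4.60 and 4.43 in FS016 and FS019, and 3.25 and 2.41 in FS017 and FS018. The same pair, FS015 and FS020, had the highest MEF levels of the gonad list (9.27 and 9.31 against 6.43 to 6.61), in which Star, a carrier of steroid synthesis, was 8.44 and 8.38. Star was also 7.26 to 7.60 in prostate and 6.44 to 7.14 in the 5 grafts. Over the MEFs, Cyp11a1 reached 6.98, Nr5a1 5.37 and Inha 7.02. Amh was 1.91 to 3.18, and no MEF sample had Cyp17a1 above the value of 3 reads. The part of gonad cells in the Gata4 values was not tested. In the second table Gata4 was below the value of 3 reads in FS022 (-2.20) and at 7.28 in FS023. FS022 also had the lower stomach sum of that pair (6.82 against 14.43).

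Gata6 (ENSMUSG00000005836.8, mm9 chromosome 18, 11052508 to 11085633, plus strand), a zinc finger factor of endoderm and of mesoderm such as heart and smooth muscle, was the only one of the 8 above the value of 3 reads in all 19 samples. It was 6.99, 9.45, 8.03, 7.87 and 6.23 in the 5 grafts in order, 3.71 to 5.03 in prostate (median 4.46) and 5.98 to 8.56 in MEFs (median 6.93). Prostate lay below every graft and every MEF sample, by -3.32 ± 0.50 (SE) log2 units (adjusted p = 0.000213) and -2.79 ± 0.46 (adjusted p = 8.43e-05) in turn. Grafts and MEFs differed by 0.53 ± 0.64 (adjusted p = 0.478). The MEF pair FS015 and FS020 was again the highest, with 8.56 and 8.53. Gata6 was 8.38 in FS022 and 5.45 in FS023, the reverse of the order of Gata4. An exon of 1010001N08Rik overlaps 58 bases of Gata6 on the other strand.

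The smooth muscle list had sums of 16.64 to 17.33 in prostate, 16.29 to 17.03 in MEFs and 12.38 to 14.78 in the 5 grafts, and the heart muscle list 8.50 to 9.06, 8.28 to 8.65 and 9.35 to 11.13. The prostate and MEF sums of the smooth muscle list overlapped. The part of smooth muscle or heart muscle cells in the Gata6 values was not tested. In the separately scaled second table the smooth muscle sum was 18.24 in FS022 and 11.69 in FS023.

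The other GATA factors took different directions. Gata2 and Gata3, both factors of prostate epithelium, averaged 12.51 and 12.04 in prostate against 7.64 and 7.74 in grafts, and were 4.87 ± 0.33 (adjusted p = 9.50e-07) and 4.30 ± 0.80 log2 units (adjusted p = 0.000901) higher in prostate. They were higher in prostate than in MEFs as well (3.94 ± 0.17 with adjusted p = 3.34e-10, and 4.80 ± 0.50 with adjusted p = 1.15e-06), and neither passed between grafts and MEFs. Gata5, a factor of endoderm, ranked the grafts in the same order as Gata4 (6.31, 8.75, 7.10, 5.0 and 4.46) but was below the value of 3 reads in every MEF sample, so that grafts were at least 18.9-fold higher. It was at least 15.8-fold lower in prostate than in grafts. Gata1, the erythroid factor, had too few reads to be tested.

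The endoderm factor list holds 22 genes, paralogs above included. Of the 18 tested in grafts over MEFs, 14 were higher and none lower (median 4.58, or 3.16 with bounds), led by Elf3 (11.57 ± 0.73, adjusted p = 3.10e-07), Ehf (9.0 ± 0.71, adjusted p = 1.41e-06) and Hnf4g. However, 6 of the 18 had no MEF sample above the value of 3 reads, Hnf4g, Sox17 and Gata5 among them. These 6 were tested only through the grafts, so their direction was fixed in advance. In prostate over grafts, 5 were higher and 11 lower (median -2.60). Over all genes tested, 29.9% were higher and 12.0% lower in grafts than in MEFs, and 10.3% higher and 23.0% lower in prostate than in grafts. Gata2 and Gata3 had the largest rises of that comparison, given above, and Onecut2 the largest fall, with a fitted -7.37 ± 0.82 (adjusted p = 2.71e-05), at least 36.4-fold. Sox17, a factor of definitive endoderm and of endothelium, was at least 50.9-fold higher in grafts than in MEFs.

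Genes of prostatic budding gave a list of 14, with 3 higher and 5 lower in grafts than in MEFs (median -0.29) and 7 higher and 1 lower in prostate than in grafts (median 0.84). The shares over all genes tested were 29.9% higher and 12.0% lower, and 10.3% higher and 23.0% lower, in turn. Hoxb13, the homeobox factor of the prostate, was 8.34 ± 0.67 log2 units higher in prostate than in grafts (adjusted p = 2.93e-06). Bmp7 rose over MEFs in grafts (5.44 ± 0.51, adjusted p = 4.88e-06) and in prostate (7.54 ± 0.40, adjusted p = 1.47e-09). Nog, an antagonist of BMP ligands, was the 1 gene lower in prostate than in grafts (-4.54 ± 0.60, adjusted p = 8.03e-05).

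Foxa2 and Shh are also active in notochord and floor plate. The 5 markers of these tissues had sums of 12.19, 10.39, 12.78, 8.32 and 9.72 in the grafts, 7.73 to 8.89 in prostate and 8.21 to 9.35 in MEFs. Most of each sum was Ntn1, at 8.22 to 12.67 in grafts, 7.73 to 8.89 in prostate and 8.03 to 9.28 in MEFs. Noto was above the value of 3 reads in 2 of the 5 grafts. T, the defining notochord factor, was 6.19 in FS002, 4.72 in FS003 and 8.13 in FS005, and below the value of 3 reads in FS007 and FS008 (-0.88 and -0.75), and prostate and MEF samples were at or below that value. The neuroendocrine list stood at 10.80, 11.80 and 11.43 in FS002, FS003 and FS005 and 6.65 and 5.98 in FS007 and FS008, beside 5.66 to 7.49 in prostate, and was 10.41 in FS022 and 15.22 in FS023. The part of these tissues in the values of Shh and Foxa2 was not tested.

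Across the 17 samples of the first table and 16100 genes with enough reads, the profile most like each gene was sought as the smallest root mean square difference between profiles centred on their own means. The nearest gene to Hnf4a was Klk1 (1.07 log2 units over a span of 14.67), followed by Sult1d1 and Cdhr5. The nearest to Cdx1 were Tm4sf20 (1.06), Ms4a18 and Alpi, and to Cdx2 Lgals2 (1.13), Guca2a and Cyp2c65. Shh was nearest to Pdlim3 (1.08), Foxa2 to Morc1 (1.31), Foxa3 to Tagln3 (0.91) and Gata4 to Zic2 (1.40). Gata6 was nearest to Kif21b at 0.57 over a span of 5.74. None of the 8 genes had another of the 8 among its 3 nearest.

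Among the 3 comparisons, that of grafts with MEFs depends most on which MEF libraries are used. With only MEF samples FS019 and FS020, the MEF libraries with the lowest sums of prostate markers, Hnf4a alone of the 8 passed, and Shh (5.88, adjusted p = 0.0863), Foxa2 (5.48, adjusted p = 0.0758), Cdx1 (4.65, adjusted p = 0.200) and Cdx2 (4.90, adjusted p = 0.217) kept their direction with 7 samples in the fit. With each close MEF pair averaged to 1 sample, 3 of the 8 passed.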

How the data were processed

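RNA-seq libraries (TruSeq kit, total RNA) of 7 renal grafts, 6 prostate samples and 6 MEF samples were analysed. Per the labels, the submitters' processing notes name bcl2fastq 1.8.4, TopHat, Cufflinks, DESeq and mm9, and the authors normalised counts per gene with DESeq and deposited log2 values in 2 tables of 23284 genes. High log2 values (11.6 to 15) were whole reads scaled by a sample's factor with 1 offset common to all samples (100% within 0.05 reads), and lower ones were scattered, so no count test was run. This gave the reads on genes and the value of 3 reads.

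Samples were grouped by the labels. Within the first table, limma 3.58.1 (R 4.3.3; lmFit, then eBayes with trend) tested genes whose linear mean reached 10. Passing took a p under 0.05, adjusted by Benjamini-Hochberg over all genes tested, and a log2 fold change of 1 or more in either direction. Single genes also had exact two-sided permutation tests. The fits were tested on simulated data. Lower bounds set a group without reads to the largest value of 3 reads among its samples. List sums add linear values. Named were the 8 genes, hedgehog ligands, receptors and GLI factors, FOXA, HNF4, GATA and CDX paralogs, and at most 3 genes per list and direction that passed with the largest change; other marker genes were named after their values were seen. The members and lists were chosen with earlier results of these data known. Positions are GENCODE M1 on mm9, and figures used matplotlib 3.10.9. Results for some genes that this rule names are not reported here.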

Additional observations from a re-analysis of the deposited data

Results flagged for a closer look

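Among 24 sets of values (8 genes in 3 groups of the first table), 1 held a sample far from the others, where about 1.2 are given by chance at 1 in 20. It was Shh in prostate sample FS012, whose value of 6.17 lay apart from the other 5 prostate samples (gap over range 0.626).

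The 2 grafts of the second table entered no comparison, and 11 of their values lay above every prostate and MEF sample of the separately scaled first table. Shh was 11.23 in FS022, above every other sample as well. Foxa2 was 7.12 and 6.40 in FS022 and FS023, Foxa3 6.08 and 5.41, and Hnf4a 9.96 and 8.28. Cdx1 was 5.02 and 3.27, and Cdx2 3.72 and 4.18, close to the value of 3 reads in these shallower libraries (3.12 and 2.70). The scaling of the tables against each other was not tested.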

How the results depend on the processing

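Each result of the 8 genes was computed again with pseudocounts of 1 and 8 on linear values, other filters, quantile scaling, 1 fit of all samples, no minimum fold change, fewer MEF libraries and each of the 5 grafts left out in turn. Of 275 such values for single genes, 244 kept their direction and side of the threshold, 14 lost the call, 11 gained it and 6 changed sign. Other filters, 1 fit of all samples, no minimum fold change, a fit without trend and averaged MEF pairs leave a gene's fold change as it was. Direction could not change in those settings, which are part of the 275, so the 244 is not a measure of robustness.

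With no minimum fold change, 11772, 10573 and 9093 genes passed for prostate over MEFs, grafts over MEFs and prostate over grafts. For grafts over MEFs, a pseudocount of 8 gave Foxa3 1.99 (now passing) and Cdx2 2.54 (no longer passing). Quantile scaling left 3 of the 8 passing, with Cdx1 at 4.10 and Cdx2 at 4.05 not passing, and turned Gata4 to -0.28 and Gata6 to -0.46. This scaling moved the median of all genes from 0.26 to -0.20. In 1 fit of all samples Foxa3 (2.79) passed. With only MEF samples FS019 and FS020, 1 of the 8 passed, Shh (5.88), Foxa2 (5.48), Cdx1 (4.65) and Cdx2 (4.90) did not, and Gata6 turned to -0.03. With close MEF pairs averaged, a choice made after seeing the data, 3 passed, and Cdx1 (5.08) and Cdx2 (4.82) did not.

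For prostate over grafts, a pseudocount of 1 gave Foxa3 -3.0 and one of 8 gave -2.06, both passing, and 8 turned Shh to -0.13. Quantile scaling gave Cdx1 -4.04, not passing. In 1 fit of all samples Foxa3 (-3.32) and Cdx2 (-3.98) passed.

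With each graft left out in turn, grafts over MEFs ranged from 1.94 to 4.07 for Foxa3 (passing without FS008) and from 3.61 to 5.98 for Cdx2 (not passing without FS003 or FS005). Prostate over grafts ranged from -0.95 to 1.04 for Shh, from -4.60 to -2.48 for Foxa3 and from -5.14 to -2.76 for Cdx2 (both passing without FS007 or FS008), and from -5.70 to -3.64 for Cdx1 (not passing without FS003 or FS005). Apart from what their construction shows, the causes were not tested.

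No paired analysis was possible because the labels give no replicate number that groups share. Below the value of 3 reads, absence could not be told from low expression.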
